A study of Homo sapiens with 5 samples.

Results

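The mitosis and G2/M genes studied here are 53 named genes whose products drive entry into mitosis, build and steer the spindle, pack and separate the chromosomes, and divide the cell. They were listed by function and not by their values, although earlier results of these data were known. They come from 44364 genes measured, and 47 of the 53 passed the filter on low values (a mean of at least 1 FPKM over the 5 libraries). Total RNA was sequenced from WI-38 cells, a human diploid lung fibroblast line that divides a limited number of times in culture. One library came from an untransfected culture at PDL 55 (PDL, the population doubling level, counts the divisions a culture has gone through) and one from an untransfected culture at PDL 15, both called untransfected because their labels name no siRNA. The remaining 3 of the 5 came from PDL 15 cultures given AUF1 siRNA, HuR siRNA or control siRNA. AUF1 (gene HNRNPD) and HuR (gene ELAVL1) are RNA-binding proteins that recognise AU-rich and U-rich stretches of mRNA. Each group had 1 library, so there is no spread between replicates, no test and no p-value, and every difference below is one between libraries.

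Mitosis is run by cyclin-dependent kinase 1 (CDK1) bound to cyclin A or B, which is switched on by CDC25 phosphatases and switched off when the anaphase-promoting complex marks the cyclins for destruction. Polo and Aurora kinases mature the centrosomes and correct faulty attachments, and the spindle checkpoint holds anaphase back until every kinetochore has caught microtubules. Most of these genes are transcribed only late in the cycle. In resting cells the DREAM complex represses them through promoter elements called CHR (cell cycle genes homology region), and in G2 the factors B-MYB and FOXM1 take its place, often next to CCAAT boxes bound by NF-Y. In an unsynchronised culture their mRNAs are therefore read as a gauge of how much of the culture is cycling, and WI-38 cells of high PDL are a classic model of replicative senescence. The labels do not say whether the PDL 55 culture was senescent.

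All levels are FPKM, read fragments per kilobase of transcript and per unit of sequencing depth, summed over the annotated Ensembl transcripts of a gene, and so are levels per length. Ratios are log2 ratios taken after adding 1 to each FPKM, which shrinks the differences of weakly expressed genes, and are given relative to the median of the 12576 genes kept. That median was -0.32 for PDL 55 against PDL 15, 0.19 for AUF1 siRNA over control siRNA, 0.31 for HuR siRNA over control siRNA, -0.12 for AUF1 siRNA against HuR siRNA, and -0.42 for control siRNA against PDL 15. A gene is counted as higher or lower when it lies at least 2-fold from the median gene. The control siRNA library stood apart: its deposited coverage per unit of FPKM, which scales with depth, was 0.300, against 1.14 to 1.29 in the other 4 libraries, and 19.6% of its FPKM times length lay in annotated transcripts, against 71.0% to 74.9%. HNRNPD had 20.3 FPKM with AUF1 siRNA, against 61.2 with control siRNA, and ELAVL1 had 9.72 FPKM with HuR siRNA, against 11.8 with control siRNA, so the second knockdown is weakly visible in these tables. The 12 fibroblast markers summed to between 1742 and 9811 FPKM a library, the 9 epithelial markers to between 1.81 and 5.20 and the 6 endothelial ones measured to between 4.72 and 14.6. The 8 blood markers summed to 1.53 FPKM at PDL 55, against 3.60 at PDL 15, and to 16.0 with AUF1 siRNA and 17.9 with HuR siRNA, against 23.9 with control siRNA, most of it CD68 in the PDL 15 libraries, and their part in the results was not tested. At PDL 55, 5 of the 8 were listed at 0. A level of exactly 0 in such tables can be a failed estimate: the collagen gene COL1A1 is listed at 0 with HuR siRNA and at 945 FPKM with control siRNA. Where a gene is listed at 0 in a library compared, no fold is given for it here, but it counts among the genes past 2-fold. Reads can also sit in transcripts that the authors' pipeline assembled instead of in annotated ones, which was so for 35 of the 53 genes in at least 1 library, and sums that include them are given where they matter.

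The mitotic genes were almost all far lower at PDL 55 than at PDL 15. Of the 47 genes that passed the filter, 44 were at least 2-fold lower and none was at least 2-fold higher, where over all genes 10.3% were lower and 9.55% higher. Their median ratio was -2.18, and the 95% bounds that the authors deposited, summed over transcripts, did not overlap for any of the 44. For genes listed at 0 at PDL 55 this adds little, since such a gene can have bounds of 0 to 0, as CDC25B did. The sum over all 53 genes was 89.2 FPKM at PDL 55, against 588 at PDL 15, and it was 876 with AUF1 siRNA and 677 with HuR siRNA, against 646 with control siRNA. The median gene of the 53 stood at 0.494 FPKM at PDL 55, against 7.72 at PDL 15, and at 10.4 with AUF1 siRNA and 7.42 with HuR siRNA, against 7.02 with control siRNA. At PDL 55 only 14 of the 53 reached 1 FPKM, against 46 at PDL 15. In total RNA from a culture, fewer dividing cells and less of each mRNA in a dividing cell cannot be told apart.

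The PDL 55 library was the lowest of the 5 for 42 of the 47 genes, and in 41 of those 42, all but ECT2, each of the PDL 15 libraries lay at least 2-fold above it as deposited. The genes for which it was not the lowest were BUB3, MAD2L1, ESPL1, MKI67 and KIF20B. With assembled transcripts in the sums, 43 of 50 genes were lower at PDL 55 than at PDL 15 (10.0% of all genes) and the median was -2.19. In that sum CDC25B was no longer called. CENPA was at least 2-fold higher, because 11.4 FPKM of assembled transcripts were placed there at PDL 55 and none in the other libraries. Against the control siRNA library as the other reference, 43 of 47 were lower and none higher, where 16.3% of all genes were lower and 15.6% higher, with a median of -2.34.

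**Figure D1:**
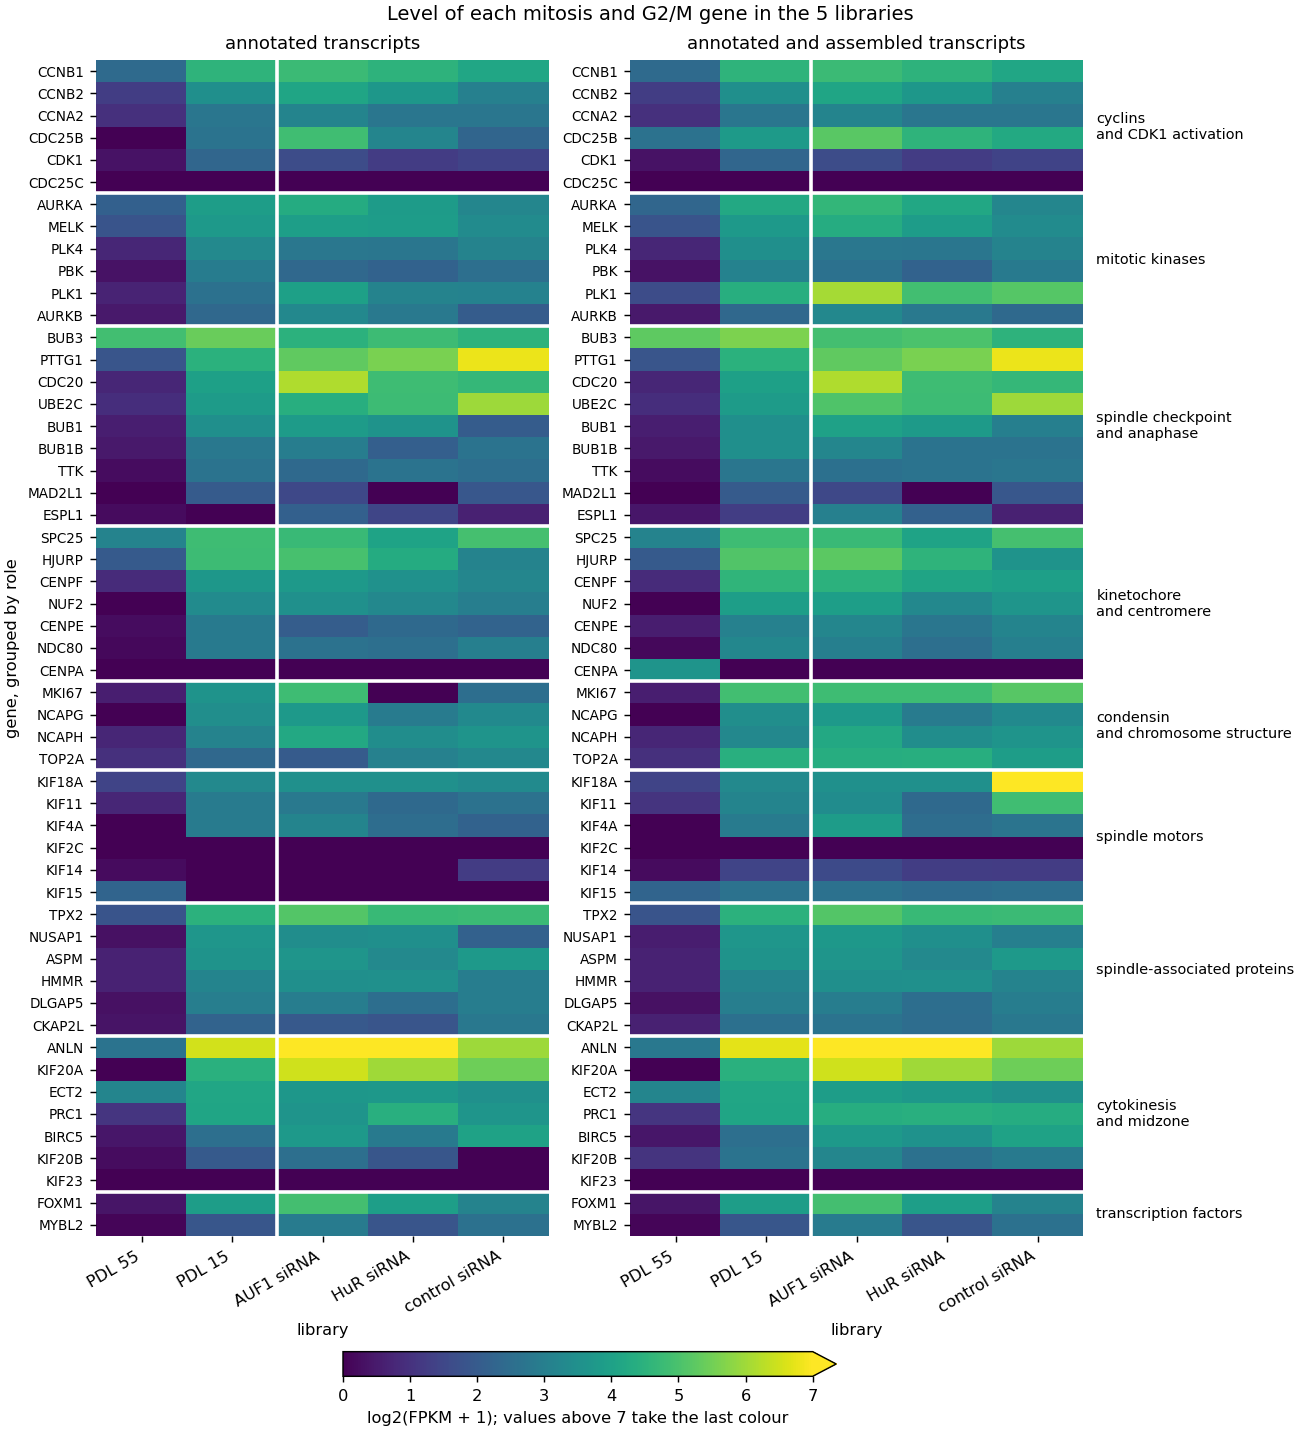
Level of each of the 53 genes (rows, grouped by role) in the 5 libraries (columns), as log2(FPKM + 1), summed over annotated transcripts (left) and over annotated and assembled transcripts (right). The PDL 55 column holds the lowest value for nearly every gene, and MKI67 with HuR siRNA is at 0 on the left but at 27.3 FPKM on the right.

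Since these genes were low together at PDL 55, their promoters were searched for the elements that the late cell-cycle genes are known for. RefSeq promoter windows (GRCh38.p14, 250 bases before to 50 after the transcription start) were at hand for 45 of the 53 genes, the others being AURKA, PBK, BUB3, TTK, UBE2C, TPX2, BIRC5 and FOXM1. The CHR was searched as TTTGAA or TTCGAA and the CCAAT box as CCAAT, both on either strand. A CHR was found in 35 of the 45 genes (77.8%), against 19.5% of the 27305 genes with a window and 16.6% of the protein-coding genes that passed the filter here. A CCAAT box was also found in 35 of the 45, against 39.7% of all genes, and 28 of the 45 (62.2%) had both, against 7.85%. The elements were also frequent in 103 other genes of the pathway, described below, that had a window. Of those, 41.75% had a CHR, 58.25% a CCAAT box and 24.27% both. The TATAAA element, a core promoter motif of other gene classes, was in 3 of the 45 (6.67%), against 13.99% of all genes. It was in 8.71% of the protein-coding genes that passed the filter and in 3.88% of the 103 other pathway genes, so the share of the 45 was close to these. Between 50 bases before the start and the end of the window, a stretch picked after the positions were seen, 30 of 45 genes (66.7%) had a CHR, against 6.24% of all genes. The following stretches run from 110 bases before to 30 after the start, with both elements in capitals on whichever strand they lie. CCNB2, PLK1, CDC20, MKI67, HMMR and PRC1 show the arrangement of a CCAAT box upstream of a CHR. KIF20A has CCAAT boxes but no match to the CHR letters searched, and MYBL2 has no match to either.
CCNB2: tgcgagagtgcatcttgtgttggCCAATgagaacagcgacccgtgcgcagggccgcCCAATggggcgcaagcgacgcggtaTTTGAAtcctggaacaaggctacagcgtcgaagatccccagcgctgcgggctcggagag
PLK1: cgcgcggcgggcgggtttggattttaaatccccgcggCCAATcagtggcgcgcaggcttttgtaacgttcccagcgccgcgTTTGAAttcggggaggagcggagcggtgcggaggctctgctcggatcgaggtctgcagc
CDC20: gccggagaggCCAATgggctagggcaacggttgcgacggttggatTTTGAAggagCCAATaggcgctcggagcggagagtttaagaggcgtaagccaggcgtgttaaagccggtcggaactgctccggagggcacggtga
MKI67: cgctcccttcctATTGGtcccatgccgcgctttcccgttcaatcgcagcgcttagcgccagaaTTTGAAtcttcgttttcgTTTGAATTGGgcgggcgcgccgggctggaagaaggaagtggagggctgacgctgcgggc
HMMR: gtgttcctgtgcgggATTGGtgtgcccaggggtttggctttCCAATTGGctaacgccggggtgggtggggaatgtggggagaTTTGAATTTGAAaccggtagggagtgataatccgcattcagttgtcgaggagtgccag
PRC1: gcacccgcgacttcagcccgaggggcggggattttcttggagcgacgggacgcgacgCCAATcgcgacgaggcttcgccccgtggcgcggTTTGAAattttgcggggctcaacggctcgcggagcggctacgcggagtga
KIF20A: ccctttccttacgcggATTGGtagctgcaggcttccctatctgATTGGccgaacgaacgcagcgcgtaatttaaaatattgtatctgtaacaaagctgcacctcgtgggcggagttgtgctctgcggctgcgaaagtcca
MYBL2: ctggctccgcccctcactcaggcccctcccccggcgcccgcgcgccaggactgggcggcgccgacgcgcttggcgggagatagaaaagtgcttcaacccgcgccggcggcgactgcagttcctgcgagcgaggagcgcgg
These are CCNB2 at chr15:59105036-59105175 (plus strand), PLK1 at chr16:23678779-23678918 (plus), CDC20 at chr1:43358871-43359010 (plus), MKI67 at chr10:128126394-128126533 (minus), HMMR at chr5:163460522-163460661 (plus), PRC1 at chr15:90994506-90994645 (minus), KIF20A at chr5:138179002-138179141 (plus) and MYBL2 at chr20:43667004-43667143 (plus), all in GRCh38.p14 and written 5′ to 3′ on the gene's strand. The CHR began 29 bases before the start in both CCNB2 and PLK1, 65 before it in CDC20 and 20 before it in PRC1. MKI67 had a pair of CHRs, 47 and 29 bases before the start, and HMMR had adjoining ones 28 and 22 before it. In MKI67 the second CHR shares bases with a CCAAT box on the other strand. A match of letters is a description of the window and does not show that a factor binds. The 30 genes kept that have a CHR match had a median PDL 55 over PDL 15 ratio of -2.28 and the 9 kept without one a median of -1.81. Of these, 28 of the 30 and 9 of the 9 were lower, so a low level at PDL 55 was not limited to genes with these letters. Only TTTGAA and TTCGAA were searched, so a gene without a match is not shown to lack the element.

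**Figure D2:**
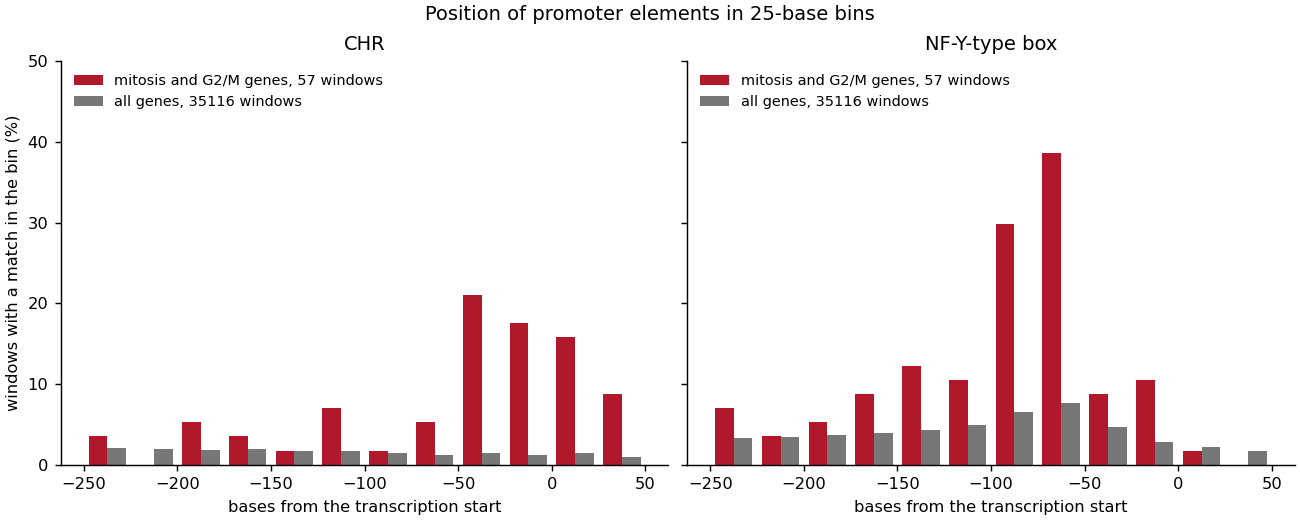
Share of RefSeq promoter windows with a CHR (left) or a CCAAT-type NF-Y box (right) that begins in each 25-base bin, by distance from the transcription start, for the 57 windows of the mitosis and G2/M genes and for all 35116 windows. The CHR bars of the mitotic genes are highest within 50 bases of the start and those of the NF-Y box 50 to 100 bases before it.

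Among the cyclins and the enzymes that activate CDK1, 5 of 6 genes passed the filter and all 5 were lower at PDL 55, with a median ratio of -1.81. CCNB1, the cyclin B1 that partners CDK1 (hg19 chromosome 5, 68462837 to 68474072), had 4.31 FPKM at PDL 55, against 22.3 at PDL 15, and 26.3 with AUF1 siRNA and 22.2 with HuR siRNA, against 16.6 with control siRNA. CCNB2, which encodes cyclin B2, had 1.42 FPKM at PDL 55, against 10.3 at PDL 15, and 16.2 with AUF1 siRNA and 11.9 with HuR siRNA, against 7.33 with control siRNA. For both cyclins the PDL 55 library was the low one and the AUF1 siRNA library the high one, although CCNB1 stayed within 2-fold among the PDL 15 libraries. CCNA2, the cyclin A2 of S and G2 phase, stood at 0.942 FPKM at PDL 55, against 5.75 at PDL 15, and at 7.85 with AUF1 siRNA and 5.73 with HuR siRNA, against 5.76 with control siRNA. CDK1 itself had 0.268 FPKM at PDL 55, against 3.95 at PDL 15, and 2.09 with AUF1 siRNA and 1.39 with HuR siRNA, against 1.63 with control siRNA. All 3 transfected libraries thus held less CDK1 than the untransfected PDL 15 library. The deposited bounds at PDL 15, 2.23 to 5.67, overlapped those with AUF1 siRNA (0.783 to 3.39) and control siRNA (0.192 to 3.40). They did not overlap those with HuR siRNA (0.574 to 2.20). CDC25B, a phosphatase that starts CDK1 activation in G2, was listed at 0 at PDL 55, against 5.40 FPKM at PDL 15, and had 28.2 with AUF1 siRNA and 8.16 with HuR siRNA, against 3.90 with control siRNA. Assembled transcripts added between 5.18 and 14.1 FPKM to it in every library, and with them it stood within 2-fold between PDL 55 and PDL 15 on the relative scale. CDC25C, the phosphatase that completes the switch, was listed at 0 in all 5 libraries.

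The 6 mitotic kinases were all lower at PDL 55, with a median ratio of -1.62 and a range of -2.27 (PBK, a mitotic MAP-kinase-kinase-like kinase) to -1.43 (AURKA). AURKA, which matures centrosomes and builds the spindle poles, had 3.44 FPKM at PDL 55, against 14 at PDL 15, and 18.6 with AUF1 siRNA and 13.3 with HuR siRNA, against 8.34 with control siRNA. AURKB, the kinase of the chromosomal passenger complex that corrects wrong attachments, had 0.391 FPKM at PDL 55, against 4.12 at PDL 15, and 8.72 with AUF1 siRNA and 6.12 with HuR siRNA, against 3.14 with control siRNA. Both Aurora kinases were highest with AUF1 siRNA and lowest at PDL 55, and in annotated transcripts control siRNA was the lowest of the 4 PDL 15 libraries for both. PLK1, the polo kinase of mitotic entry and cytokinesis (hg19 chromosome 16, 23690143 to 23701688), had 0.609 FPKM at PDL 55, against 5.15 at PDL 15, and 14.7 with AUF1 siRNA and 7.79 with HuR siRNA, against 7.55 with control siRNA. More of PLK1 lay in assembled than in annotated transcripts in every library: these added 1.46 FPKM at PDL 55, against 14.8 at PDL 15, and 51.2 with AUF1 siRNA and 20.9 with HuR siRNA, against 26.9 with control siRNA. Both readings put PLK1 highest with AUF1 siRNA and lowest at PDL 55. PLK4, which licenses centriole duplication, had 0.686 FPKM at PDL 55, against 8.73 at PDL 15, and 5.85 with AUF1 siRNA and 5.66 with HuR siRNA, against 7.80 with control siRNA. MELK, a kinase of proliferating and stem cells, had 2.53 FPKM at PDL 55, against 12.8 at PDL 15, and 14.1 with AUF1 siRNA and 13.7 with HuR siRNA, against 9.33 with control siRNA. For both of these kinases the 4 PDL 15 libraries lay within 2-fold of each other.

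All 9 spindle checkpoint and anaphase genes passed the filter, and 7 of them were at least 2-fold lower at PDL 55, while BUB3 and ESPL1 were not. BUB3, a checkpoint protein that also acts outside mitosis, had 28.6 FPKM at PDL 55, against 41.2 at PDL 15, and 21.4 with AUF1 siRNA and 26.7 with HuR siRNA, against 21.9 with control siRNA. It was the most abundant of the 53 at PDL 55, and its ratio to PDL 15 was -0.19. ESPL1, the separase that cuts cohesin at anaphase, had 0.159 FPKM at PDL 55 and was listed at 0 at PDL 15, and had 3.44 with AUF1 siRNA and 1.74 with HuR siRNA, against 0.565 with control siRNA. Assembled transcripts at ESPL1 carried 0.188 FPKM at PDL 55, against 1.40 at PDL 15, and 3.77 with AUF1 siRNA and 1.78 with HuR siRNA, against none with control siRNA, so its 0 at PDL 15 is not an absence of reads. With both kinds summed ESPL1 reached 7.21 FPKM with AUF1 siRNA, against 0.565 with control siRNA.

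Within that set CDC20, the activator of the anaphase-promoting complex and target of the checkpoint (hg19 chromosome 1, 43824599 to 43828874), had 0.698 FPKM at PDL 55, against 14.7 at PDL 15, and 70.2 with AUF1 siRNA and 27.5 with HuR siRNA, against 24.5 with control siRNA. The deposited 95% bounds, summed over its transcripts, were 65.0 to 75.4 with AUF1 siRNA, against 18.7 to 30.3 with control siRNA, and touched those of no other library. MAD2L1, which makes the checkpoint effector MAD2, was listed at 0 at PDL 55, against 3.0 FPKM at PDL 15, and had 1.85 with AUF1 siRNA and was listed at 0 with HuR siRNA, against 2.71 with control siRNA. BUB1, the checkpoint kinase of the kinetochore, had 0.494 FPKM at PDL 55, against 10.1 at PDL 15, and 13.4 with AUF1 siRNA and 11 with HuR siRNA, against 3.07 with control siRNA, where 4.10 more lay in assembled transcripts. BUB1B, which makes BUBR1, and TTK, the kinase that starts checkpoint signalling, had ratios of -2.0 and -2.11 between PDL 55 and PDL 15 and stayed within 2-fold of the median gene in the siRNA comparisons.

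PTTG1, the securin that keeps separase inactive, had 2.62 FPKM at PDL 55, against 21.1 at PDL 15, and 38.0 with AUF1 siRNA and 47.2 with HuR siRNA, against 109.9 with control siRNA. UBE2C, the ubiquitin-conjugating enzyme of the anaphase-promoting complex, had 0.899 FPKM at PDL 55, against 13.3 at PDL 15, and 20.1 with AUF1 siRNA and 26.9 with HuR siRNA, against 62.3 with control siRNA. These were the pair furthest above PDL 15 in the control siRNA library, and both values rested on short transcripts. A single 434-nt PTTG1 transcript carried 26.5 FPKM with AUF1 siRNA and 33.6 with HuR siRNA, against 100.5 with control siRNA, and a 518-nt UBE2C transcript carried 40.7 FPKM with control siRNA and none with either of the other siRNAs. PTTG1 also has near-identical copies (PTTG2 and the pseudogene PTTG3P) that can share its reads.

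The kinetochore and centromere genes were lower in 6 of 6 cases that passed the filter, with a median of -2.44. SPC25, a subunit of the NDC80 complex that grips microtubules, had 7.79 FPKM at PDL 55, against 27.3 at PDL 15, and 25.9 with AUF1 siRNA and 15.6 with HuR siRNA, against 29.8 with control siRNA. Its partner NUF2 was listed at 0 at PDL 55, against 9.33 FPKM at PDL 15, and had 10.4 with AUF1 siRNA and 8.69 with HuR siRNA, against 7.02 with control siRNA. NDC80 had 0.110 FPKM at PDL 55, against 6.20 at PDL 15, and 5.20 with AUF1 siRNA and 4.88 with HuR siRNA, against 7.14 with control siRNA. All 3 subunits were lowest at PDL 55, and SPC25 and NDC80 were lowest with HuR siRNA among the PDL 15 libraries. HJURP, the chaperone that loads the centromeric histone, had 2.95 FPKM at PDL 55, against 27 at PDL 15, and 30.2 with AUF1 siRNA and 18.9 with HuR siRNA, against 7.70 with control siRNA. CENPF, a large protein of the outer kinetochore, had 0.806 FPKM at PDL 55, against 12.0 at PDL 15, and 12.6 with AUF1 siRNA and 10.6 with HuR siRNA, against 8.25 with control siRNA. CENPE, a kinetochore motor, had a PDL 55 over PDL 15 ratio of -2.28. CENPA, the centromeric histone itself, was listed at 0 in its annotated transcripts in all 5 libraries.

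Of the genes of condensin and chromosome structure, 4 of 4 were lower at PDL 55, with a median of -2.37. NCAPG, a condensin I subunit, was listed at 0 at PDL 55, against 10.1 FPKM at PDL 15, and had 12.9 with AUF1 siRNA and 6.49 with HuR siRNA, against 9.05 with control siRNA. NCAPH, the kleisin that closes the condensin I ring, had 0.685 FPKM at PDL 55, against 7.72 at PDL 15, and 17.6 with AUF1 siRNA and 9.84 with HuR siRNA, against 11.2 with control siRNA. Both condensin subunits were highest with AUF1 siRNA. MKI67, the Ki-67 protein that coats mitotic chromosomes and is used as a proliferation marker (hg19 chromosome 10, 129894923 to 129924649), had 0.503 FPKM at PDL 55, against 11.1 at PDL 15, and 27.3 with AUF1 siRNA and was listed at 0 with HuR siRNA, against 4.72 with control siRNA. Its reads were split differently between annotated and assembled transcripts from library to library, and with both summed it had 0.503 FPKM at PDL 55, against 28.2 at PDL 15, and 27.3 with AUF1 siRNA and 27.3 with HuR siRNA, against 35.1 with control siRNA. On that sum MKI67 was flat among the 4 PDL 15 libraries to within 2-fold and low only at PDL 55. TOP2A, the topoisomerase that untangles sister DNA, had 0.976 FPKM at PDL 55, against 4.17 at PDL 15, and 3.03 with AUF1 siRNA and 7.42 with HuR siRNA, against 8.68 with control siRNA. With assembled transcripts it had 0.976 FPKM at PDL 55, against 20.4 at PDL 15, and 19.7 with AUF1 siRNA and 19.9 with HuR siRNA, against 13.9 with control siRNA, a similar plateau.

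The spindle motors were the least well measured set, with 3 of 6 genes past the filter, all 3 lower at PDL 55. KIF11, the kinesin-5 that pushes spindle poles apart, had 0.672 FPKM at PDL 55, against 6.59 at PDL 15, and 6.15 with AUF1 siRNA and 4.24 with HuR siRNA, against 5.20 with control siRNA. KIF18A, which dampens chromosome oscillations, had 1.70 FPKM at PDL 55, against 8.74 at PDL 15, and 10.5 with AUF1 siRNA and 10.4 with HuR siRNA, against 9.20 with control siRNA. In annotated transcripts both varied by less than 2-fold among the PDL 15 libraries, but in the control siRNA library a further 281 FPKM of assembled transcripts were placed at KIF18A and 23.0 at KIF11. KIF4A, a chromosome-arm motor whose intronless copy KIF4B can share its reads, was listed at 0 at PDL 55, against 6.55 FPKM at PDL 15, and had 7.89 with AUF1 siRNA and 4.72 with HuR siRNA, against 3.56 with control siRNA. KIF15, a motor that backs up KIF11, had 3.73 FPKM at PDL 55 and was listed at 0 in the other 4 libraries, where assembled transcripts carried 4.50 to 5.25 FPKM and at PDL 55 none. KIF14, a motor of cytokinesis, had a mean of 0.309 FPKM, and KIF2C, which takes microtubules apart at kinetochores, was listed at 0 in every library.

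The 6 spindle-associated proteins were all lower at PDL 55, with a median of -2.34. TPX2, which activates AURKA on spindle microtubules (hg19 chromosome 20, 30327074 to 30389608), had 2.55 FPKM at PDL 55, against 21.4 at PDL 15, and 34.1 with AUF1 siRNA and 25.2 with HuR siRNA, against 26.4 with control siRNA. ASPM, a spindle pole protein, had 0.605 FPKM at PDL 55, against 11.1 at PDL 15, and 11.6 with AUF1 siRNA and 8.73 with HuR siRNA, against 12.6 with control siRNA. HMMR, a microtubule-binding protein that is also a hyaluronan receptor, had 0.580 FPKM at PDL 55, against 7.95 at PDL 15, and 10.1 with AUF1 siRNA and 10.5 with HuR siRNA, against 6.86 with control siRNA. Each of these had 1 low library, PDL 55, and 4 PDL 15 libraries within 2-fold of each other. NUSAP1, a bundler of spindle microtubules, had 0.239 FPKM at PDL 55, against 11.7 at PDL 15, and 9.81 with AUF1 siRNA and 10.2 with HuR siRNA, against 3.47 with control siRNA, where assembled transcripts held another 3.71. DLGAP5, a spindle assembly factor, and CKAP2L, a mitotic microtubule protein, had ratios of -2.35 and -1.53 between PDL 55 and PDL 15.

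Of the 7 cytokinesis and midzone genes 6 passed the filter and 5 were lower at PDL 55, with a median of -2.25. ANLN, the anillin that scaffolds the contractile ring (hg19 chromosome 7, 36429415 to 36493400), was the most abundant of the 53 at PDL 15, with 5.35 FPKM at PDL 55, against 90.2 at PDL 15, and 135 with AUF1 siRNA and 137 with HuR siRNA, against 62.2 with control siRNA. Its ratio of -3.52 was the lowest among genes listed at 0 in neither library, and the deposited bounds were 3.63 to 7.07 at PDL 55, against 81.1 to 99.3 at PDL 15. Most of this level lay in short ANLN transcripts: those of 569, 596 and 707 nt held 33.8, 20.7 and 26.6 FPKM at PDL 15. The transcript of 4787 nt held 3.98 FPKM at PDL 15 and was listed at 0 at PDL 55. The one of 4661 nt held 1.16 FPKM at PDL 55, against 5.17 at PDL 15. KIF20A, a midzone kinesin (hg19 chromosome 5, 137514408 to 137523404), was listed at 0 at PDL 55, against 20.8 FPKM at PDL 15, and had 90.0 with AUF1 siRNA and 63.5 with HuR siRNA, against 43.2 with control siRNA. All of the transfected libraries were thus at least 2-fold above PDL 15 for KIF20A, and this excess lay in a 600-nt transcript that was listed at 0 in both untransfected libraries. The 2935-nt transcript of KIF20A had 26.9 FPKM with AUF1 siRNA, 21.7 with HuR siRNA and 19.8 with control siRNA, against 20.8 at PDL 15. PRC1, which bundles the antiparallel microtubules of the midzone, had 1.12 FPKM at PDL 55, against 16.2 at PDL 15, and 11.4 with AUF1 siRNA and 20.5 with HuR siRNA, against 11.7 with control siRNA. Assembled transcripts at PRC1 held a further 8.08 FPKM with AUF1 siRNA and 7.45 with control siRNA. With them its AUF1 siRNA over HuR siRNA ratio was 0.05, against -0.68 in annotated transcripts. BIRC5, the survivin subunit of the chromosomal passenger complex, had 0.333 FPKM at PDL 55, against 4.85 at PDL 15, and 12.6 with AUF1 siRNA and 6.19 with HuR siRNA, against 15.3 with control siRNA. Another 4.76 FPKM of BIRC5 lay in assembled transcripts with HuR siRNA and none in the other libraries. ECT2, the exchange factor that activates RHOA at the cleavage site, had 8.13 FPKM at PDL 55, against 16.7 at PDL 15, and 12.1 with AUF1 siRNA and 12.3 with HuR siRNA, against 10.4 with control siRNA. With a ratio of -0.63, ECT2 was the third exception beside BUB3 and ESPL1. KIF20B, a kinesin of late cytokinesis, had 0.176 FPKM at PDL 55, against 2.96 at PDL 15, and 4.88 with AUF1 siRNA and 2.69 with HuR siRNA, and was listed at 0 with control siRNA. Its assembled transcripts held 6.39 FPKM with control siRNA, 3.46 with AUF1 siRNA and 2.46 with HuR siRNA, and 0.902 at PDL 55, against 2.40 at PDL 15. KIF23, the motor of the centralspindlin complex, was listed at 0 in all 5 libraries.

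Both transcription factors of the group were lower at PDL 55. FOXM1, the forkhead factor that drives G2/M genes (hg19 chromosome 12, 2966847 to 2986206), had 0.310 FPKM at PDL 55, against 13.8 at PDL 15, and 29.1 with AUF1 siRNA and 14.3 with HuR siRNA, against 7.82 with control siRNA. MYBL2, which makes B-MYB, had 0.0775 FPKM at PDL 55, against 2.66 at PDL 15, and 6.57 with AUF1 siRNA and 2.58 with HuR siRNA, against 5.11 with control siRNA. The PDL 55 over PDL 15 ratios were -3.18 and -1.44, the second on a gene whose low level the scale compresses. FOXM1 overlaps ITFG2 by 2111 bases in hg19, and since the sources used here do not state strand, reads in that overlap cannot be told apart.

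**Figure D3:**
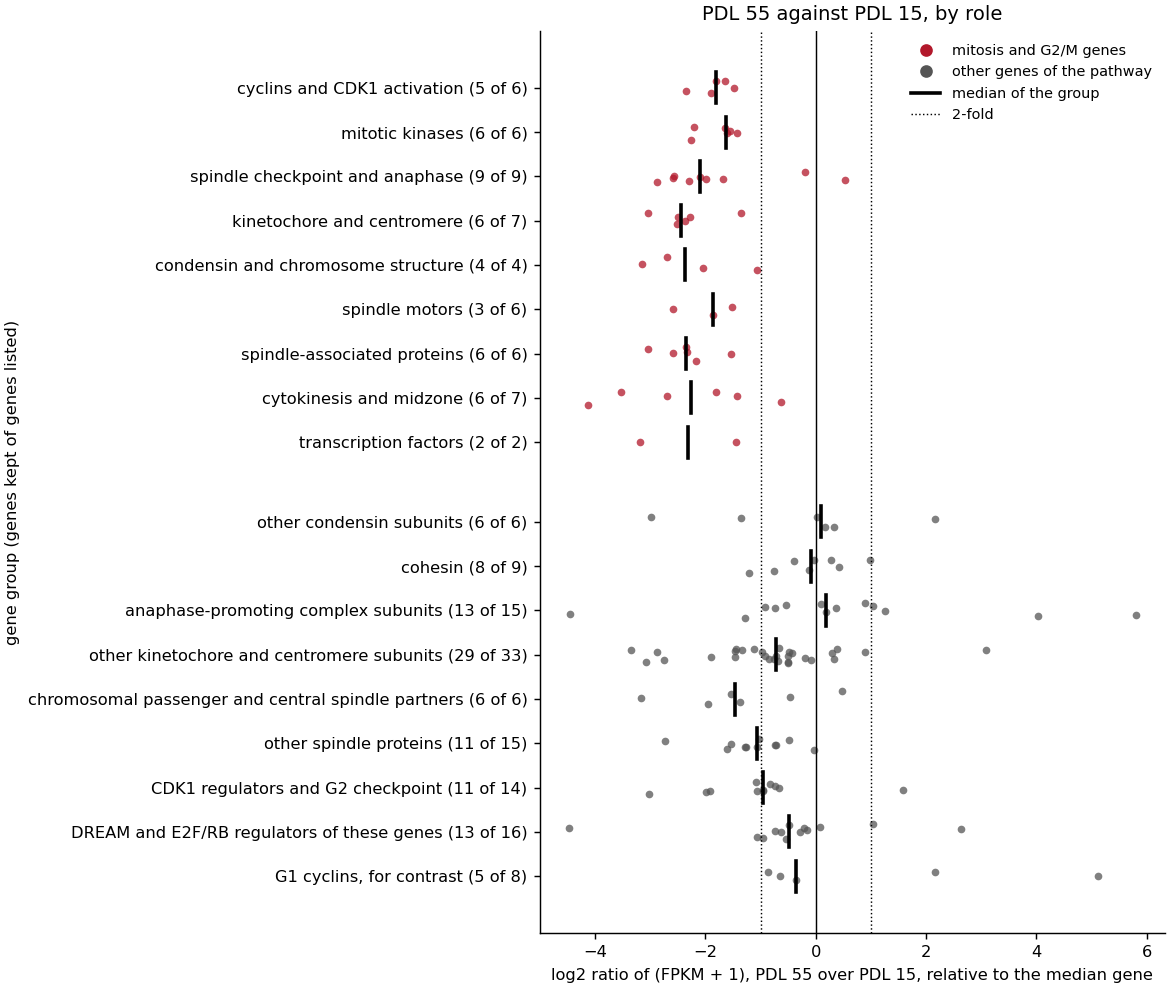
Log2 ratio of (FPKM + 1) at PDL 55 over PDL 15, relative to the median gene, for the genes kept of each group (1 point a gene, a black bar at the median, dotted lines at 2-fold), with the 9 role sets of mitosis and G2/M genes above and 9 sets of other pathway genes below. The medians of the 9 role sets lie between -2.44 and -1.62, and those of the other condensin subunits, cohesin and the anaphase-promoting complex lie near 0.

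The rest of the pathway was less uniform. Of 122 other pathway genes, 102 passed the filter, and 33 were lower and 11 higher at PDL 55, with a median ratio of -0.68. Over all genes 10.3% were lower and 9.55% higher, so the count of higher pathway genes was close to the background share. The 6 partners of the chromosomal passenger complex and central spindle had 4 lower genes, led by CIT, the citron kinase of abscission, with 2.47 FPKM at PDL 55, against 38.1 at PDL 15. RHOA, the GTPase of the contractile ring and of the whole cytoskeleton, was abundant in both, with 559 FPKM at PDL 55, against 505 at PDL 15. Other spindle proteins were lower in 7 of 11 cases, led by TACC3, a spindle-stabilising protein with 2.48 FPKM at PDL 55, against 28.1 at PDL 15, whereas KIF2A, a microtubule depolymerase also used outside mitosis, had 68.1 FPKM at PDL 55, against 87.5 at PDL 15. The other kinetochore subunits were lower in 10 of 29 cases and higher in 1, CENPL, which was listed at 0 at PDL 15. CENPP, a constitutive centromere subunit, was listed at 0 at PDL 55, against 11.7 FPKM at PDL 15.

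Cohesin, the anaphase-promoting complex and the other condensin subunits had set medians near the median gene for PDL 55 over PDL 15. Cohesin, which also shapes chromosome loops in interphase, had 1 lower gene of 8 and a median of -0.08: RAD21 had 15.9 FPKM at PDL 55, against 47.5 at PDL 15, and WAPL, the cohesin release factor, had 9.41 FPKM at PDL 55, against 5.56 at PDL 15. The anaphase-promoting complex had 4 higher and 2 lower genes of 13 and a median of 0.19, and its extremes ANAPC11 and ANAPC10 were listed at 0 in 1 of the libraries compared. The other condensin subunits had 2 lower and 1 higher gene of 6 and a median of 0.09, with NCAPD2 listed at 0 at PDL 55 and NCAPD3 listed at 0 at PDL 15, where its assembled transcripts held 7.98 FPKM, and with these its ratio was -0.99. In this set 3 of the 6 were listed at 0 in 1 of the libraries compared. With control siRNA as the reference all 6 lay below the median gene, with a median of -1.125. The medians against that reference were -0.06 for cohesin and 0.50 for the anaphase-promoting complex. The CDK1 regulators lay further down, with a median of -0.95, and 5 of 11 were lower and 1 higher. CDKN3, a phosphatase of CDK1 and CDK2, had 0.374 FPKM at PDL 55, against 12.9 at PDL 15, while CDKN1A, the p21 inhibitor induced by p53, had 351 FPKM at PDL 55, against 145 at PDL 15. The DREAM and E2F/RB regulators had a median of -0.48, and 2 of 13 were lower and 2 higher. E2F7, a repressor that p53 induces, had 11.5 FPKM at PDL 55, against 1.51 at PDL 15. RBBP4, a histone-binding subunit of DREAM, was listed at 0 at PDL 55, against 26.9 FPKM at PDL 15. For contrast, of the G1 cyclins and their kinases none of the 5 kept was lower, and CCND2, the cyclin D2, had 65.6 FPKM at PDL 55, against 1.40 at PDL 15, while CDK4 had 32.8 FPKM at PDL 55, against 75.8 at PDL 15.

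With AUF1 siRNA the mitotic genes spread to both sides of the control siRNA library. Of the 47, 10 were higher (10.1% of all genes were) and 4 were lower (11.2% of all genes), with a median ratio of 0.20. With assembled transcripts in the sums 5 of 50 were higher (8.79% of all genes) and 4 lower (10.8%), so the count of higher genes came close to the background share. CDC20, FOXM1 and HJURP were higher under each of the 5 ways of summing transcripts (annotated, with all assembled, with assembled of at least 300 nt, only those of status OK, and 1 transcript per gene), with ratios of 1.30, 1.58 and 1.65 in annotated transcripts. For CDC20 with status OK only, FOXM1 with 1 transcript and HJURP in both of those ways, the control siRNA value was listed at 0, so these readings carry no fold. The FOXM1 excess lay in a 618-nt transcript with 21.95 FPKM, which was listed at 0 with control siRNA. Its long transcripts held 7.12 FPKM with AUF1 siRNA (3475 nt), against 7.82 with control siRNA (3370 nt). The 1776-nt HJURP transcript was lower, at 2.84 FPKM, against 7.70 with control siRNA. CDC20 was higher in its 422-nt transcript (50.3 FPKM, against 14.9) and in longer ones (19.97, against 9.55). The 1 transcript way takes the short one of each, so it says nothing of the longer ones. The other calls moved with the way of summing: MKI67 and KIF20B had little or nothing in annotated transcripts of the control siRNA library. PTTG1 and UBE2C rested on the short transcripts described for them above. Set against the untransfected PDL 15 library instead, 12 of 47 were higher (9.83% of all genes) and none lower (8.86%), with a median of 0.45. Under all 5 ways of summing, BIRC5, CDC20, CDC25B, FOXM1, KIF20A and NCAPH were higher in that comparison, although for KIF20A the status OK and 1 transcript ways compare with a PDL 15 value listed at 0. The pair of comparisons shares the AUF1 siRNA library. CDC20 had ratios of 1.30 over control siRNA and 2.40 over PDL 15, and FOXM1 had 1.58 and 1.24. HJURP had a ratio of 1.65 over control siRNA but 0.37 over PDL 15, and in the control siRNA library only 1 annotated HJURP transcript, of status LOWDATA, had a value.

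With HuR siRNA the genes stood near the control siRNA library, and the side of it depended on the scaling. Of the 47, 3 were higher (10.7% of all genes) and 8 lower (11.6%), with a median of -0.15. As deposited, without setting the ratios relative to the median gene, the median was 0.16, with 5 higher and 5 lower, counts given without the share of all genes on that scale. With assembled transcripts 1 of 50 was higher (9.33%) and 8 were lower (11.1%), and the median was -0.42. SPC25 alone was lower under each of the 5 ways of summing, with a ratio of -1.20. This rested on a 510-nt transcript, which the 1 transcript way also takes, with 12.2 FPKM, against 27.5 with control siRNA. Its 1354-nt transcript went the other way, with 3.44 FPKM, against 2.32 with control siRNA. Against the PDL 15 library the picture was flat: 4 of 47 were higher (8.88%) and 2 lower (8.41%), with a median of 0.05, and 25 of the 47 lay above the median gene and 22 below it. The slight deficit against control siRNA was therefore not seen against the other PDL 15 library.

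AUF1 siRNA set directly against HuR siRNA does not involve the library that stood apart, and gave the most even pattern among the siRNA comparisons. Of the 47 genes, 40 lay above the median gene and 7 below it, and with assembled transcripts 49 of 50 lay above it. With only transcripts of status OK 34 of 45 lay above it, and with 1 transcript per gene 37 of 45. The median ratio was 0.51, or 0.53 with assembled transcripts, so most of these differences were under 2-fold. Of the 47, 8 were at least 2-fold higher with AUF1 siRNA (6.28% of all genes were) and none was at least 2-fold lower (6.16%). With assembled transcripts 8 of 50 were higher (5.48%). CDC20, FOXM1 and MYBL2 were higher in each way of summing, with ratios of 1.44, 1.09 and 1.20. The deposited 95% bounds of MYBL2 were 5.73 to 7.40 FPKM with AUF1 siRNA, against 2.05 to 3.10 with HuR siRNA, and those of FOXM1 were 26.4 to 31.7 FPKM with AUF1 siRNA, against 12.4 to 16.2 with HuR siRNA. The lowest ratio, -0.94 for TOP2A, belonged to a gene whose sum with assembled transcripts was 19.7 FPKM with AUF1 siRNA, against 19.9 with HuR siRNA. By role, all 5 cyclin and CDK1 genes, all 6 kinases, all 6 spindle-associated proteins and all 3 motors kept lay above the median gene, with set medians of 0.51, 0.41, 0.37 and 0.57. Both transcription factors did too. The spindle checkpoint and anaphase genes were split, with 5 above and 4 below. The kinetochore, condensin and cytokinesis sets each had 1 gene below. Among other pathway genes the same comparison had 74 of 102 above the median gene, with a median of 0.24, 10 higher and 6 lower.

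**Figure D4:**
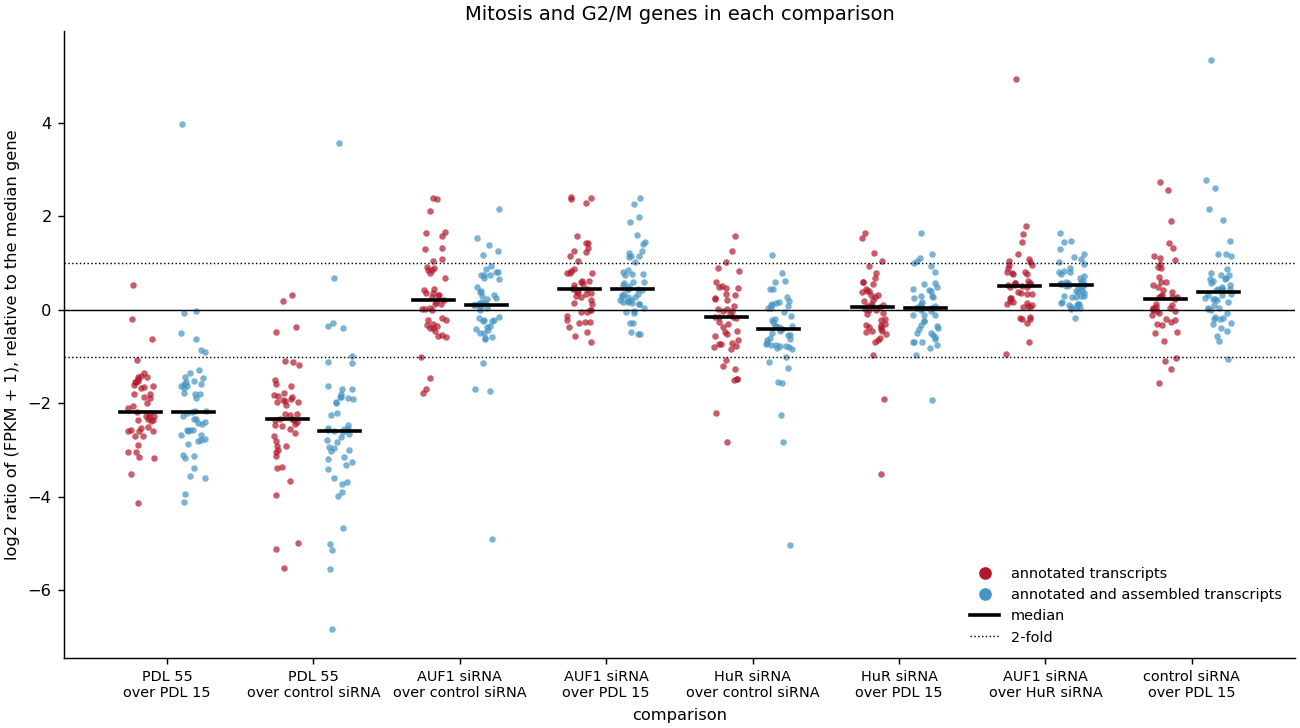
Log2 ratio of (FPKM + 1), relative to the median gene, of each mitosis and G2/M gene in 8 comparisons (1 point a gene), with sums over annotated transcripts beside sums over annotated and assembled transcripts, black bars at the medians and dotted lines at 2-fold. The PDL 55 comparisons have medians below -2, and AUF1 siRNA over HuR siRNA is the siRNA comparison whose points lie most to one side of 0.

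Control siRNA against PDL 15 shows how far 2 PDL 15 libraries without a named knockdown differed. Of the 47, 8 were higher (13.6% of all genes) and 4 lower (11.5%), with a median of 0.23, beside 10 higher and 4 lower for AUF1 siRNA and 3 higher and 8 lower for HuR siRNA over control siRNA. BIRC5 was higher under all 5 ways of summing. KIF20A was higher and HJURP lower in annotated transcripts and with either kind of assembled ones, while in the other ways KIF20A was listed at 0 at PDL 15 and HJURP with control siRNA. Over all 5 libraries and relative to the median gene, AUF1 siRNA was the highest library for 27 of the 47 genes, control siRNA for 14, PDL 15 for 5, HuR siRNA for 1 and PDL 55 for none.

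**Figure D5:**
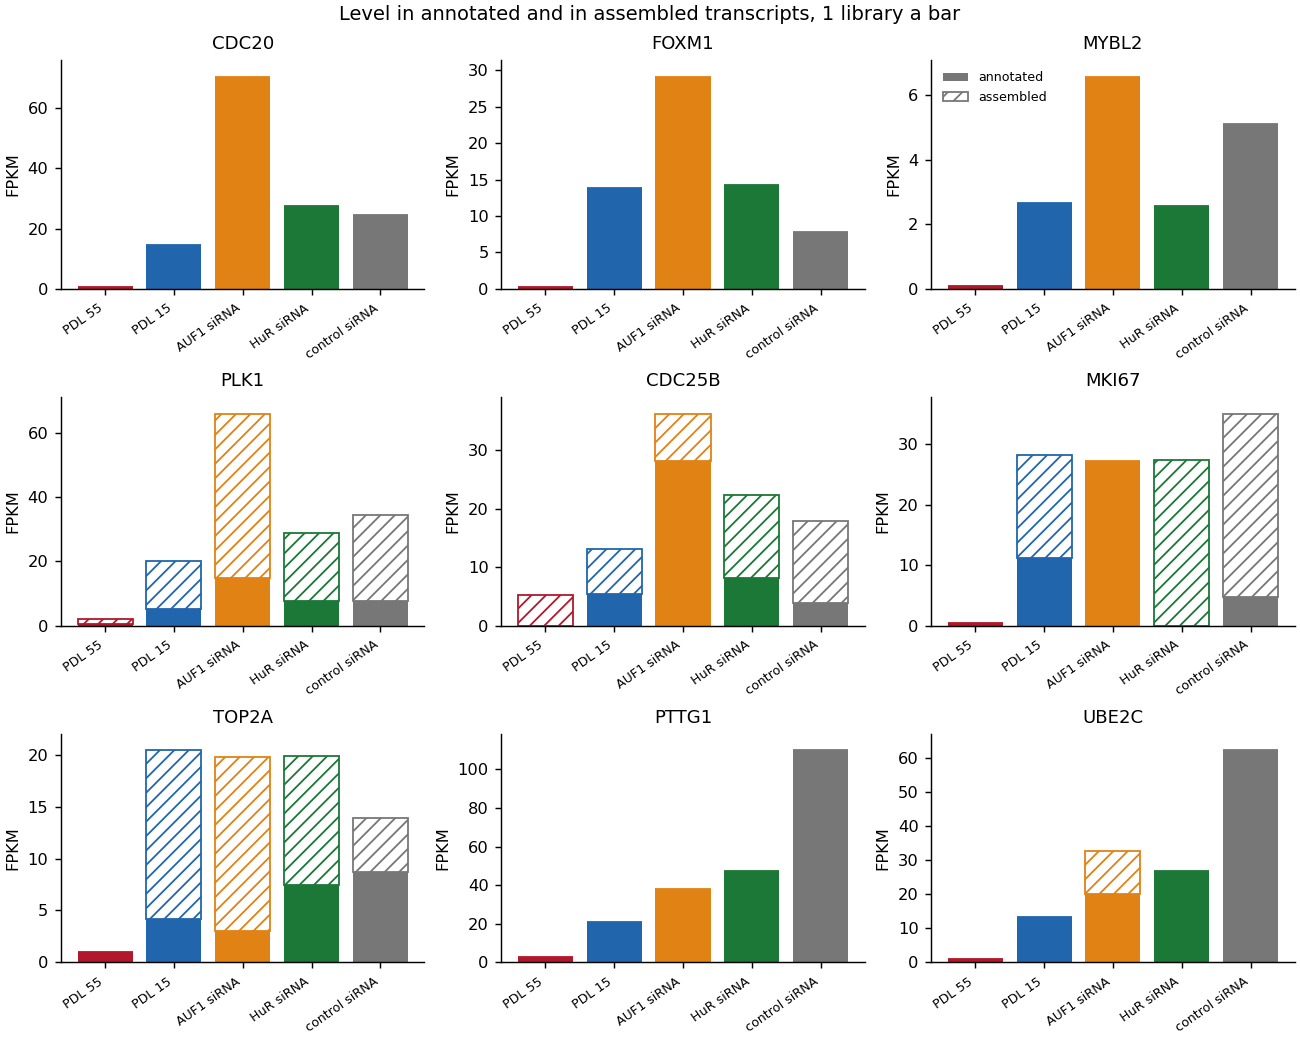
FPKM of 9 genes in each library (1 bar a library, PDL 55 at the left), with filled bars for annotated transcripts and hatched bars for transcripts assembled by the authors' pipeline. CDC20 and FOXM1 stand highest with AUF1 siRNA without any assembled part, whereas MKI67, TOP2A and PLK1 change order with the hatched part, and PTTG1 and UBE2C are highest with control siRNA.

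AUF1 and HuR both bind AU-rich sequence, so the 3′ untranslated regions of the genes were searched for the pentamer ATTTA. For 25 of the genes the annotated transcript with the highest FPKM had a 3′ untranslated region in GENCODE release 29. Of these, 14 (56.0%) held the pentamer, against 52.7% of 5185 protein-coding genes, and the density was 1.99 per kb, against 2.11 per kb. The longer element TTATTTATT was in 1 of the 25, CENPE (4.00%), against 5.28% of all. CENPE, on chromosome 4, has it in the stretch tgaattgttTTATTTATTtgtatattt, in capitals, and had 3.20 FPKM with AUF1 siRNA and 4.24 with HuR siRNA, against 3.69 with control siRNA. Those CENPE levels are of annotated transcripts, and assembled ones held a further 5.05 FPKM with AUF1 siRNA and 1.52 with HuR siRNA, against 4.18 with control siRNA. With them the CENPE ratio of AUF1 siRNA over HuR siRNA was 0.57, against -0.20 without, so the order of these libraries depended on the sum. By these letters the mitotic genes were no richer in AU-rich elements than other genes.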

How the data were processed

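Total RNA of WI-38 cells was extracted with Trizol, amplified with a NuGEN Ovation kit that takes up polyadenylated and other transcripts and removes ribosomal RNA, and sequenced on a Genome Analyzer II, per the labels' protocols. Reads were processed with TopHat2 2.0.6, Cufflinks 2.0.2 and Cuffdiff against hg19, per the submitters' processing notes. The annotation release, strand setting and read depth were not given in the sources used here. The deposited tables give FPKM per transcript, as the authors computed it, with 95% bounds, a status and a coverage. Deposited coverage was used only to compare libraries. Annotated transcripts were tied to genes mainly through GENCODE release 29 (98.6% had a gene) and FPKM was summed per gene with Python 3.11.15, pandas 2.3.3 and numpy 2.4.6, and figures were drawn with matplotlib 3.10.9. Bounds were summed over transcripts. Genes with a mean of at least 1 FPKM were kept, 1 FPKM was added before log2, and ratios were set relative to the median gene. With 1 library per group no test was made, and calls are by size, at least 2-fold. The computation was checked on simulated data. Values were given for the 3 genes of highest mean level in each role set, the 3 with the lowest and highest ratio in each comparison and the extremes of each pathway set, and further members were described after their values were seen. The genes and lists were chosen with earlier results of these data known.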

Additional observations from a re-analysis of the deposited data

Results flagged for a closer look

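PLK1 held 51.2 FPKM in transcripts assembled from the reads with AUF1 siRNA, against 26.9 with control siRNA, and 14.8 at PDL 15, which is more than the 14.7 FPKM in its annotated transcripts in the same library. ESPL1 held 3.77 FPKM in assembled transcripts with AUF1 siRNA, against none with control siRNA, and 1.40 at PDL 15, beside 3.44 in annotated ones. CENPA, listed at 0 in its annotated transcripts throughout, held 11.4 FPKM in assembled transcripts at PDL 55 and none in the other libraries. All 3 are signals outside the annotated sums, and their cause was not tested.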

How the results depend on the processing

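No paired analysis was possible because each group has 1 library, and for the same reason leaving out a library was not run. These 3 alternatives were chosen after seeing the data: adding only assembled transcripts of at least 300 nt, leaving out genes listed at 0, and keeping only genes with few assembled reads (at most 10% of the annotated FPKM). Of 2161 values for 174 single-gene results, 1980 were labelled the same, 157 moved and 24 reversed, and the cause was not tested. The same means past 2-fold in both with 1 sign, or under 2-fold in both with 1 sign or within 1.5-fold of each other. Sizes could therefore differ under that label. Leaving out genes listed at 0 and keeping genes with few assembled reads change only the counts and medians. The 174 single-gene values of each were thus the same by construction and say nothing of stability.

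The counts in this paragraph show only how a count moved. They are not set beside the share of all genes in the same setting, so none is read against the background. For PDL 55 over PDL 15 the median was -3.17 with a pseudocount of 0.1 FPKM. The count of higher genes was 1 with all assembled transcripts, with those of at least 300 nt, with that pseudocount and with no filter, and the count of lower genes was 25 of 26 among genes with few assembled reads. For AUF1 siRNA over control siRNA the higher genes numbered 5 with assembled transcripts or those of at least 300 nt, 6 at a mean of at least 5 FPKM and 2 with few assembled reads. The lower genes numbered 2 at that mean, 2 with transcripts of at least 300 nt, 0 against PDL 15 and 1 with few assembled reads. For HuR siRNA over control siRNA the higher genes numbered 1 with assembled transcripts (either kind) and at a mean of at least 5 FPKM, 8 with status OK, 7 with 1 transcript per gene, 5 with no filter and as deposited, and 0 with few assembled reads. The lower genes numbered 5 at that mean, as deposited and with few assembled reads, and 2 against PDL 15, and the median was 0.16 as deposited and 0.053 against PDL 15. For control siRNA over PDL 15 the lower genes numbered 1 with assembled transcripts (either kind) and at a mean of at least 5 FPKM, and 0 with few assembled reads. The higher genes numbered 5 with no filter and 4 as deposited, and the median was -0.14 with no filter and -0.19 as deposited. For AUF1 siRNA over HuR siRNA the lower genes numbered 3 with status OK, 2 with 1 transcript per gene and 1 with the pseudocount of 0.1, with no filter and as deposited, and the higher genes 5 with no filter, as deposited and with few assembled reads.

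Single genes reversed as follows, with ratios that compare with a value listed at 0 given only as what the setting returned, not as folds. With assembled transcripts, and with those of at least 300 nt, NCAPD3 in PDL 55 over PDL 15 was -0.99 in both, MKI67 with AUF1 siRNA over control siRNA -0.59 and -0.60, TOP2A there 0.24 and 0.23, KIF20B with HuR siRNA over control siRNA -0.62 and -0.63, and KIF20B with control siRNA over PDL 15 0.66 and 0.68. With status OK only, KIF20A in PDL 55 over PDL 15 was 0.31 and with 1 transcript per gene 0.32, both of them 0 against 0 and so only the shift of the median gene. With status OK only and control siRNA listed at 0, CDC20 with control siRNA over PDL 15 was -1.95, and PTTG1 3.46 with AUF1 siRNA over control siRNA, 3.56 with HuR siRNA over control siRNA and -2.91 with control siRNA over PDL 15. With 1 transcript per gene BUB1 with HuR siRNA over control siRNA was -0.016. With the other PDL 15 library as reference, NCAPD3 at PDL 55 was -0.64, PTTG1 and UBE2C with AUF1 siRNA 1.03 and 0.78, and with HuR siRNA PTTG1 was 1.21, MYBL2 0.053, KIF20B -0.015 and NUSAP1 -0.093.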
